A study of Mus musculus and Rattus norvegicus with 37 samples.

Results

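The 40 genes described here are 20 of DNA replication, 14 of mitosis and 6 that encode cyclins D and E or transcription regulators. They were read in the livers of mice treated with an inhibitor of miR-29 and in the livers of obese rats. A gene was a member when its name in the deposited tables equalled one of 40 listed symbols. All 40 were found among the 47929 uniquely named genes of both mouse tables, and 39 (all except Ccnb2) among the 28026 of the rat tables. RNA-seq of polyA+ RNA covered 37 livers. WT/Floxed mice received LNA29 (n = 8, of which 4 were WT and 4 floxed) or saline (n = 5, of which 3 were WT and 2 floxed). Mice labelled L-Sirt1 KO received LNA29 (n = 4) or saline (n = 4). The rats were lean (ZLR, n = 4), fatty (ZFR, n = 4), fatty with vehicle (n = 4) and fatty with BT2 (n = 4).

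LNA29 is a pair of locked nucleic acid inhibitors, one against miR-29a and the other against miR-29b and miR-29c, each given at 20 mg/kg in a single subcutaneous injection. Livers were taken in the fed state at day 7. All mice were female on the C57BL/6J background and ate chow. The WT mice were 9 to 11 weeks old, whereas the L-Sirt1 KO mice, which lack Sirt1 in the liver only, and their floxed littermates were 15 to 20 weeks old, so that age and the floxed allele cannot be told apart within the WT/Floxed groups. The promoter that drives Cre is not given in the sources used here. ZFR are fa/fa males, which lack a working leptin receptor, and were compared with male ZLR at 5.5 months. For the other rat comparison, 3-month-old male ZFR were injected daily for 7 days with BT2, an inhibitor of the kinase of branched-chain ketoacid dehydrogenase, at 20 mg/kg, or with the vehicle dimethylsulfoxide.

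Most hepatocytes of an adult liver rest outside the cell cycle and return to it after injury or loss of tissue. On the way into S phase, cyclins D and E and their kinases free the E2F factors, which turn on genes of the replication machinery, among them the MCM helicase that unwinds DNA, the PCNA clamp that holds the polymerases, and the enzymes that supply deoxynucleotides. Genes of mitosis (cyclins A and B with Cdk1, the Aurora and Polo kinases, the spindle checkpoint and the ubiquitin ligase that ends mitosis) are turned on later, by complexes that hold FOXM1 and B-MYB and act through a short promoter element called CHR, often next to CCAAT boxes.

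The depth of each library was estimated from the value of 1 read and came to 42.6 to 78.0 M reads in mice and 0.189 to 58.5 M reads in rats. No 2 libraries held identical values. Sirt1 gene counts did not separate the genotypes, since they were 552.7, 587.4 and 616.5 (lowest, median and highest) in saline mice labelled L-Sirt1 KO and 492.7, 576.0 and 699.1 in saline WT/Floxed mice. Counts over a whole gene do not separate its exons, so these tables do not check the genotype, which the study also assayed by RT-qPCR of Sirt1 (not analysed here). All 7 hepatocyte markers were detected in mice and in rats, with summed normalized counts of at least 4356000 in each mouse library. In these bulk samples, fewer cells of a type and less RNA per cell cannot be told apart.

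The promoters differed between both arms of the cycle in motifs that were searched because these gene groups are known for them. Windows are shown for some members named below that held a match. Of these, Cdk1 and Mki67 were past the criteria in neither mouse comparison. The called members Mcm4, Ung and Tk1 had no match or no window. RefSeq promoter windows (GRCm38.p6, 250 bases before to 50 after each start) matched 31 of the 40 members by symbol. An E2F motif (TTTCCCGC, TTTGGCGC, TTTCGCGC or TTTGCCGC on either strand) stood in 8 of 16 replication promoters (50%), in 1 of 12 mitosis promoters (8.33%) and in 2.6% of the 27025 genes with a window. A CHR (TTTGAA or TTCGAA) stood in 10 of 12 mitosis promoters (83.3%), in 4 of 16 replication promoters (25%) and in 21.7% of all genes. CCAAT stood in 11 of 12 (91.7%), 11 of 16 (68.8%) and 41.1%, and CHR together with CCAAT in 83.3%, 25% and 9.65%. The matches overlap in places, because the E2F forms can be read on both strands of 1 stretch and TTCGAA reads the same on both. None of the 3 regulators with a window (E2f1, Ccne1 and Mybl2) held any of these motifs. A match is a description of the letters and not evidence of binding. In the windows of the MCM subunits, on the gene's strand from 5′ to 3′, capitals mark the E2F match, and in the windows of the mitosis genes they mark the CHR.
Mcm3, chr1:20820263-20820292, minus strand: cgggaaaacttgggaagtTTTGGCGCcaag
Mcm5, chr8:75109345-75109374, plus strand: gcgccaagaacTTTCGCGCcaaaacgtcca
Mcm6, chr1:128359797-128359826, minus strand: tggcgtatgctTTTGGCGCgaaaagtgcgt
Cdk1, chr10:69352966-69352995, minus strand: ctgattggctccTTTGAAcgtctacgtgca
Mki67, chr7:135716478-135716507, minus strand: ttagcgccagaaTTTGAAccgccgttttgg
Top2a, chr11:99024351-99024380, minus strand: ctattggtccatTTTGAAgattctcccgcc

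LNA29 pairs with the mature miR-29 members, and the site letters in the members' 3′ UTRs are shown to tell which members could pair with them. The mature sequences (RefSeq, GRCm38.p6) share 1 seed, written in capitals, and miR-29b is made from 2 loci.
mmu-miR-29a-3p, chr6:31062673-31062694, minus strand: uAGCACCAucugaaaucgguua
mmu-miR-29b-3p, chr6:31063025-31063047, minus strand, and chr1:195037091-195037113, plus strand: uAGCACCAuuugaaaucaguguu
mmu-miR-29c-3p, chr1:195037600-195037621, plus strand: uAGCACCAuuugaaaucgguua
The complement of the seed, TGGTGCT, occurred in an annotated 3′ UTR (GENCODE M21, GRCm38) of 4 of the 40 members (10%) and of 2860 of 20979 genes with a 3′ UTR (13.6%). The 8-base form TGGTGCTA occurred in 1 member (2.5%), Mybl2, against 2.96% of all genes. The 4 windows below carry the site in capitals.
Ung, chr5:114139074-114139102, plus strand: cttggtgtgtgTGGTGCTggggatctaac
Aurkb, chr11:69051347-69051375, plus strand: ctagcactacaTGGTGCTcacgaccactg
Ccna2, chr3:36566010-36566038, minus strand: ttggttaacatTGGTGCTgccaactgtca
Mybl2, chr2:163083458-163083486, plus strand: tgggaagttccTGGTGCTaatagaacaag
Of these, Ung was past the criteria in WT/Floxed mice, and Aurkb, Ccna2 and Mybl2 were past them in neither mouse comparison.

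In WT/Floxed mice, the comparison asks how these genes differed 7 days after miR-29 was inhibited in livers that express Sirt1. Ung, which encodes the glycosylase that removes uracil from DNA, and E2f1, a transcription factor that drives S-phase genes, rose with LNA29, and Tk1, the thymidine kinase of the salvage pathway, fell. A mouse gene was called when p was under 0.05, the Benjamini-Hochberg adjusted p of limma was under 0.2, the mean was above 50 normalized counts and the fold was above 1.2. These criteria were passed by 2 members that were higher, where 2.42% of the 15811 genes tested were, and by 1 that was lower, where 1.93% were. At an unadjusted p under 0.05, 8 members were higher (6.82% of all genes) and 1 was lower (6.5%). No member was separate between the groups, against 0.942% of all genes that were separate and higher.

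Ung (ENSMUSG00000029591.14, chr5:114130386-114139323, plus strand) carried the site shown above. Its normalized count was 235.1, 368.9 and 440.6 (lowest, median and highest of 8) with LNA29 and 175.9, 127.0, 168.3, 118.7 and 271.3 in the 5 saline livers. The groups overlapped through a single saline liver, the fifth, which lay above 2 LNA29 livers. The means were 344 ± 84.0 (SD, n = 8) and 172 ± 60.7 (SD, n = 5). The log2 fold change was 1.02 (SE 0.21, 95% interval 0.56 to 1.47, limma adjusted p = 0.0309, two-sided exact permutation p = 0.00311), and Ung was past the criteria with each of the 13 livers left out in turn. It was 0.81 in WT livers alone, with an adjusted p of 0.26, and 1.16 in floxed livers alone, with an adjusted p of 0.129.

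E2f1 (chr2:154559407-154569892, minus strand) stood at 137.5, 163.6 and 241.7 with LNA29 and at 78.85, 118.7, 145.0, 127.7 and 134.8 with saline. Of the saline livers, the third lay above the lowest LNA29 liver. The log2 fold change was 0.55 (SE 0.17, 95% interval 0.18 to 0.92, limma adjusted p = 0.159, exact permutation p = 0.00388). Its 2 within-background values were 0.56 (adjusted p = 0.60) in WT and 0.50 (adjusted p = 0.292) in floxed livers. The call was lost without LNA29 replicate 3, 5, 6, 7 or 8 or saline replicate 1, 2 or 4.

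Tk1 (chr11:117815526-117826092, minus strand) went the other way from most of its group. It stood at 905.1, 1121 and 1683 with LNA29 and at 1524, 1886, 1527, 1327 and 1661 with saline, and 2 of the LNA29 livers lay within the range of the saline livers. The log2 fold change was -0.43 (SE 0.13, 95% interval -0.72 to -0.15, limma adjusted p = 0.151, exact permutation p = 0.014). It was -0.21 (adjusted p = 0.72) in WT and -0.71 (adjusted p = 0.147) in floxed livers, and the call was lost without LNA29 replicate 5, 6, 7 or 8 or saline replicate 1, 2, 3 or 5. The annotated gene Gm20708 lies over Tk1 on the opposite strand, and because the strand setting of the counting is not given in the sources used here, reads of both cannot be told apart.

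The replication genes as a group had a median log2 fold change of 0.24 (-0.43 to 1.02), beside 0.0017 over all genes tested, and 15 of 20 were above 0. Besides Ung, the helicase subunits Mcm5 (0.73, SE 0.33, limma adjusted p = 0.361) and Mcm7 (0.22, SE 0.09, adjusted p = 0.286) and the origin licensing factor Cdt1 (0.42, SE 0.20, adjusted p = 0.369) had an unadjusted p under 0.05 without passing the criteria. Pcna was at 1605, 1794 and 2251 with LNA29 and at 1770, 1835, 1624, 1665 and 1752 with saline, and its log2 fold change of 0.07 had a 95% interval of -0.10 to 0.25. The annotation holds 2 pseudogenes named after Pcna, with which reads could be shared. Cdt1 lies wholly within the annotated gene Gm20388 on the same strand, so that reads could be shared there too. The 5 replication genes below 0 were Mcm2, Gins1, Tk1, Rfc3 and Pola1.

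All 14 mitosis genes had a log2 fold change above 0, with a median of 0.33 (0.03 to 0.89), and 35 of all 40 members were above 0 (50.5% of all genes). None of the 14 was past the criteria, and 2 had an unadjusted p under 0.05 with limma, namely Aurka (0.36, SE 0.13) and Cdc20 (0.89, SE 0.39). In a fit with the background (WT or floxed) as covariate, Aurka was past the criteria (0.37, SE 0.13, limma adjusted p = 0.166), beside Ung, E2f1 and Tk1, and in floxed livers alone Cdc20 was (1.31, adjusted p = 0.176). Cdc20, which activates the ligase that ends mitosis, was at 68.53, 101.7 and 189.5 with LNA29 and at 24.24, 25.40, 97.06, 142.0 and 68.50 with saline, with a limma adjusted p of 0.337. The first 2 saline livers were low for Cdc20 and the fourth was higher than most treated livers. Cdk1, the kinase that starts mitosis, was at 54.21, 94.74 and 178.6 with LNA29 and at 38.92, 55.37, 108.8, 76.17 and 71.91 with saline (log2 fold change 0.46, SE 0.29, adjusted p = 0.541).

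Mki67, the gene of the proliferation marker Ki-67, was at 354.0 in LNA29 replicate 4 and between 85.16 and 182.1 in the other 7 LNA29 livers, beside 81.04, 115.5, 177.4, 160.9 and 103.8 with saline. Apart from that 1 liver, the groups covered nearly the same range, and the log2 fold change was 0.29 (SE 0.29, 95% interval -0.33 to 0.91, limma adjusted p = 0.74). Among the regulators, whose median was 0.35, Ccne1, or cyclin E1, was at 14.46, 20.87 and 45.38 with LNA29 and at 12.01, 7.487, 25.95, 17.25 and 10.87 with saline (0.78, SE 0.32, adjusted p = 0.301). Ccnd1, or cyclin D1, was at 4409, 8065 and 10540 with LNA29 and at 5130, 4521, 8665, 5629 and 9777 with saline (0.25, SE 0.23, adjusted p = 0.704).

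**Figure D1:**
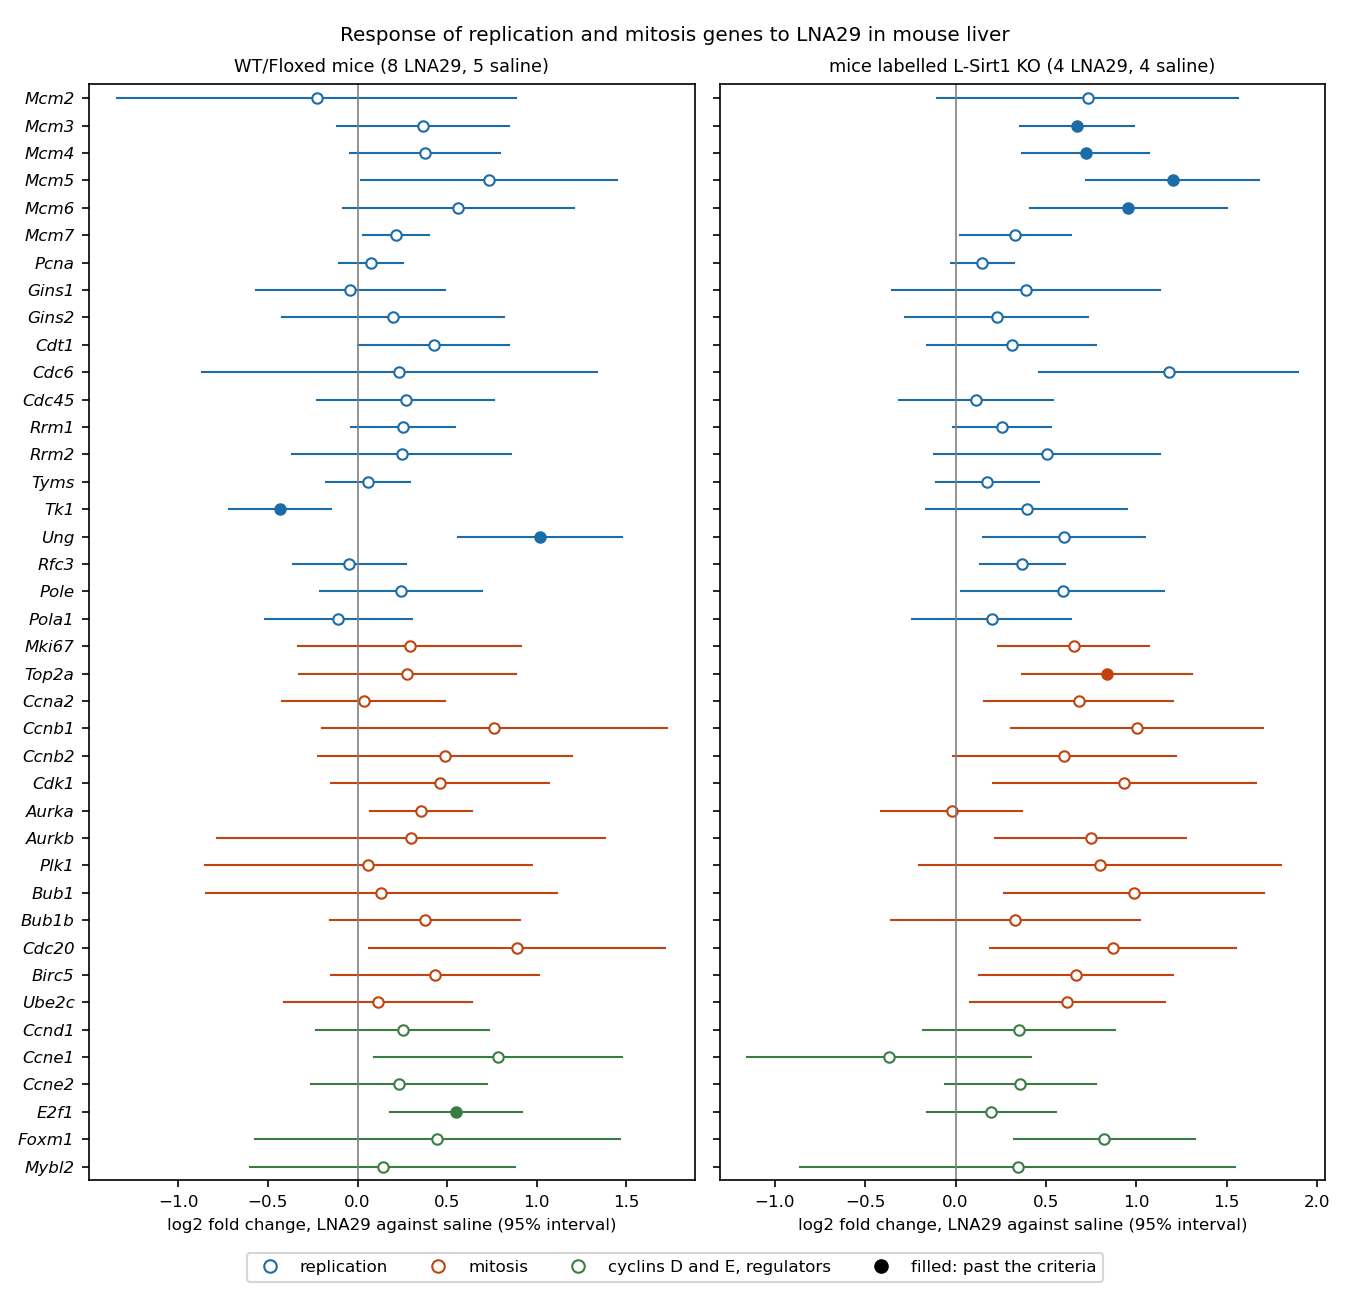
Log2 fold change of LNA29 against saline with its 95% interval (x axis) for each of the 40 members (y axis), with WT/Floxed mice on the left (8 against 5 livers) and mice labelled L-Sirt1 KO on the right (4 against 4), coloured by role, with filled points past the criteria. In the left panel Ung and E2f1 are filled to the right of 0 and Tk1 to the left, while in the right panel the 5 filled points, Mcm3 to Mcm6 and Top2a, lie to the right of 0.

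A single liver stood apart in this set. LNA29 replicate 4, a WT liver, was the highest of 13 for 25 of the 40 members. Its mean over the mitosis genes lay 1.25 above the saline mean on the log2 scale and its mean over the replication genes 0.87 above, whereas the other livers with LNA29 began at -0.10 and -0.21. At the other end, saline replicate 1 was the lowest for 13 members and saline replicate 2 for 10, and the saline livers spanned -0.67 to 0.64 over the mitosis genes and -0.19 to 0.14 over the replication genes. The same LNA29 liver had the highest sums of the 8 macrophage markers (40600 normalized counts, beside 7344 to 20160 in the other LNA29 livers and 13480 to 23650 in the saline livers) and of the 8 lymphocyte markers (1905, beside 635.6 to 1009 and 806.4 to 1475). Their part in its high member values was not tested. Without this liver, 30 members were above 0, the medians were 0.13 for replication and 0.22 for mitosis, and Ung, E2f1 and Tk1 were still past the criteria. Saline replicates 1 and 2 shared a sequencing flow cell with LNA29 replicates 1 to 3, whose mitosis means were 0.01, -0.10 and 0.47. With the flow cell as a covariate and all livers kept, the same 3 members were past the criteria. At an unadjusted p under 0.05, 5 members in place of 8 were then higher.

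In WT/Floxed mice, 0 of 8 macrophage and 0 of 8 lymphocyte markers were called, where 2.42% of all genes were called higher and 1.93% lower. Above 0 lay 1 of 8 and 0 of 8 (50.5% of all genes), and no marker of these lists was at 0 in every library. The 6 cholangiocyte markers all lay above 0, with sums of 3425 to 6371 with LNA29 and 2873 to 4123 with saline and none called. Of the 6 endothelial markers, 1 was called, Lyve1, which was lower with LNA29 (log2 fold change -0.51, limma adjusted p = 0.165). Over that list, 2 of 6 lay above 0 and the median was -0.06. Its sums were 8935 to 14550 with LNA29 and 10570 to 14130 with saline. Among the 7 hepatocyte markers, Apoa1 and Tat were called, in opposite directions. Whether shifts in these cell types took part in the member values was not tested.

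**Figure D2:**
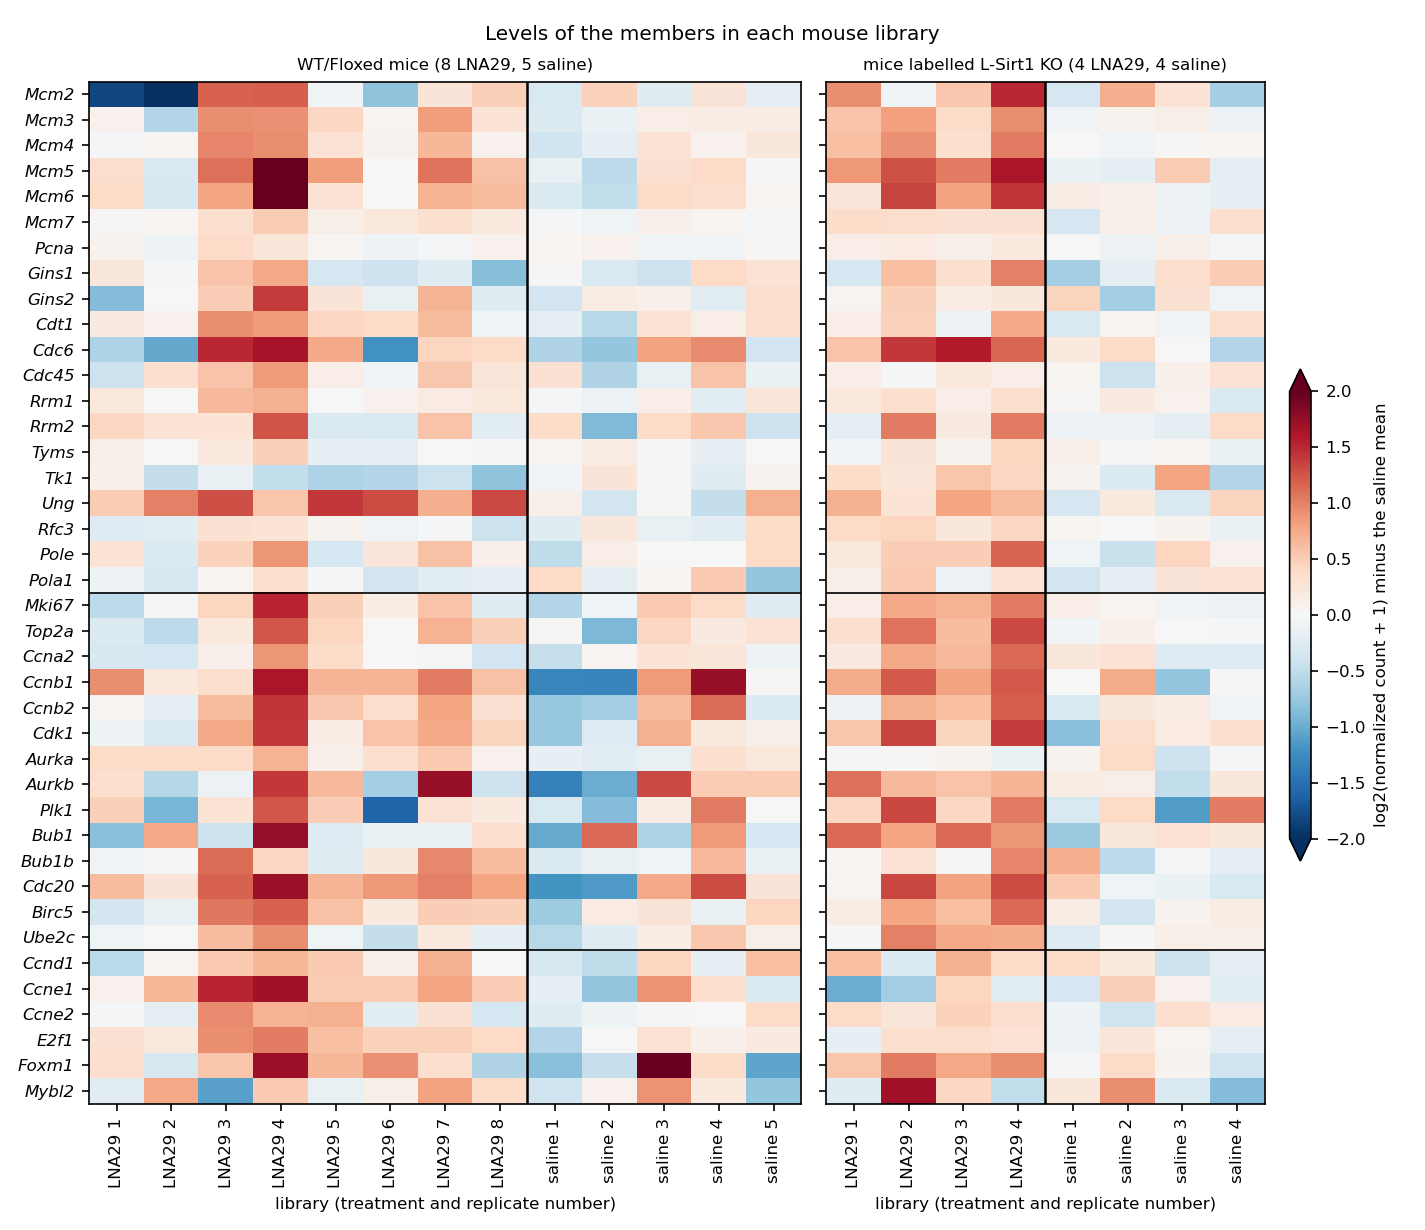
Level of each member (y axis) in each mouse liver (x axis) as log2(normalized count + 1) minus the saline mean of its table, with red above and blue below that mean and the colour scale ending at 2 on either side. In the left panel LNA29 replicate 4 forms a dark red column, being the highest liver for 25 of 40 members, and in the right panel the 4 LNA29 columns are mostly red, deepest in replicates 2 and 4.

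The same question was put to livers that lack Sirt1 by their labels, those of the L-Sirt1 KO mice. The helicase subunits Mcm3, Mcm4, Mcm5 and Mcm6 and the topoisomerase Top2a, which untangles replicated chromosomes, rose with LNA29. These 5 members were past the criteria, where 1.19% of the 15885 genes tested were past them and higher, and 0 members were lower, where 0.68% were. At an unadjusted p under 0.05, 20 members were higher (6.3% of all genes) and 0 were lower (4.9%). The groups did not overlap, LNA29 above saline, for 12 members (3.65% of all genes), and 38 of 40 members had a log2 fold change above 0 (49.5%).

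Mcm5 (chr8:75109569-75128439, plus strand), whose promoter window is shown above, was at 245.2, 326.1, 276.8 and 418.7 in the 4 LNA29 livers and at 121.7, 118.2, 191.8 and 117.6 in the 4 saline livers. Each treated liver was above every saline liver. The log2 fold change was 1.2 (SE 0.21, 95% interval 0.72 to 1.68, limma adjusted p = 0.0645, two-sided exact permutation p = 0.0286, the smallest that 4 against 4 can give). Mcm5 was past the criteria with each of the 8 livers left out in turn.

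The 3 other called subunits gave the same picture with smaller margins. Mcm6 (chr1:128331590-128359664, minus strand) was at 329.5, 714.9, 486.1 and 751.8 with LNA29 and at 310.5, 299.0, 261.0 and 248.6 with saline (log2 fold change 0.96, SE 0.24, limma adjusted p = 0.181). LNA29 replicates 2 and 4 were more than double any saline liver, and replicate 1 was close to the saline range. Mcm4 (chr16:15623897-15637400, minus strand) was at 364.6, 449.8, 299.4 and 493.2 against 239.1, 227.0, 243.8 and 247.4 (0.72, SE 0.16, adjusted p = 0.13). Mcm3 (chr1:20802968-20820312, minus strand) was at 372.0, 438.5, 322.6 and 474.5 against 237.7, 261.2, 271.0 and 228.9 (0.67, SE 0.14, adjusted p = 0.111). For Mcm2, in contrast, LNA29 replicate 2 was the lowest treated liver (152.8, beside 306.3, 231.8 and 457.8) and lay below 2 of the saline livers (126.4, 265.8, 192.4 and 100.2). The remaining subunits were Mcm2 (0.73, SE 0.37, adjusted p = 0.516) and Mcm7 (0.33, SE 0.14, adjusted p = 0.41), whose groups overlapped.

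All 20 replication genes lay above 0 in these mice, with a median of 0.39 (0.11 to 1.2) beside -0.0027 over all genes tested, and 6 were separate between the groups. Cdc6, which loads the helicase onto origins, was separate at 1.18 on the log2 scale (SE 0.32, adjusted p = 0.204) but had a mean under 50 normalized counts. Rfc3, a subunit of the clamp loader, was separate with 0.37 (SE 0.11, adjusted p = 0.23). Pcna was at 2012, 2055, 1981 and 2092 with LNA29 and at 1832, 1716, 1998 and 1810 with saline, and its difference was small (0.15, SE 0.08, adjusted p = 0.533).

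Top2a (chr11:98992943-99024189, minus strand) was the only mitosis gene past the criteria in the mice labelled L-Sirt1 KO. It was at 147.8, 251.8, 180.8 and 295.0 with LNA29 and at 113.1, 125.9, 117.4 and 114.6 with saline (log2 fold change 0.84, SE 0.21, 95% interval 0.37 to 1.31, limma adjusted p = 0.178). The saline livers lay close together, whereas the treated livers differed among themselves, again with replicates 2 and 4 on top. Across the 14 mitosis genes, 13 lay above 0 with a median of 0.71 (-0.02 to 1.00), 10 had an unadjusted p under 0.05, and 5 were separate (Top2a, Ccnb1, Cdk1, Aurkb and Bub1). The median of these genes was thus higher than that of the replication genes while fewer of them passed the criteria. Aurkb, Plk1 and Bub1, like Cdc6 of the replication genes, had means under 50 normalized counts and could not be called. At an unadjusted p under 0.05, 10 of 14 mitosis genes and 9 of 20 replication genes were higher.

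Ccnb1, or cyclin B1, had the largest difference of the group. It was at 55.88, 78.06, 58.03 and 78.56 with LNA29 and at 32.99, 55.84, 18.69 and 33.44 with saline (1.00, SE 0.31, limma adjusted p = 0.264). Its partner Cdk1 was at 96.33, 168.0, 89.12 and 175.2 against 36.30, 83.68, 73.21 and 82.55 (0.93, SE 0.33, adjusted p = 0.319). Both were separate between the groups, by a narrow margin, without passing the adjusted limit. The annotation holds a pseudogene named after Ccnb1, with which reads could be shared. Mki67 was at 158.1, 243.5, 233.4 and 291.9 against 158.3, 149.8, 135.9 and 131.6 (0.65, SE 0.19, adjusted p = 0.23). Only LNA29 replicate 1 lay within the saline range for Mki67. Aurka, the Aurora kinase of the centrosome, was the mitosis gene below 0 (-0.02, SE 0.17).

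Of the regulators, 5 of 6 lay above 0 with a median of 0.35, and none was past the criteria. Foxm1, the factor named above for the mitosis genes, was at 47.65, 67.40, 55.65 and 62.09 with LNA29 and at 31.18, 42.06, 33.89 and 24.05 with saline, which did not overlap (0.82, SE 0.22, limma adjusted p = 0.204). Ccnd1 was at 14880, 8023, 16110 and 12810 against 12850, 11430, 7348 and 8674 (0.35, SE 0.24, adjusted p = 0.632). For Ccnd1, replicate 2 was the lowest of the treated livers. Ccne1 lay below 0 (-0.37, SE 0.35), and E2f1 was at 0.20 (SE 0.16).

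**Figure D3:**
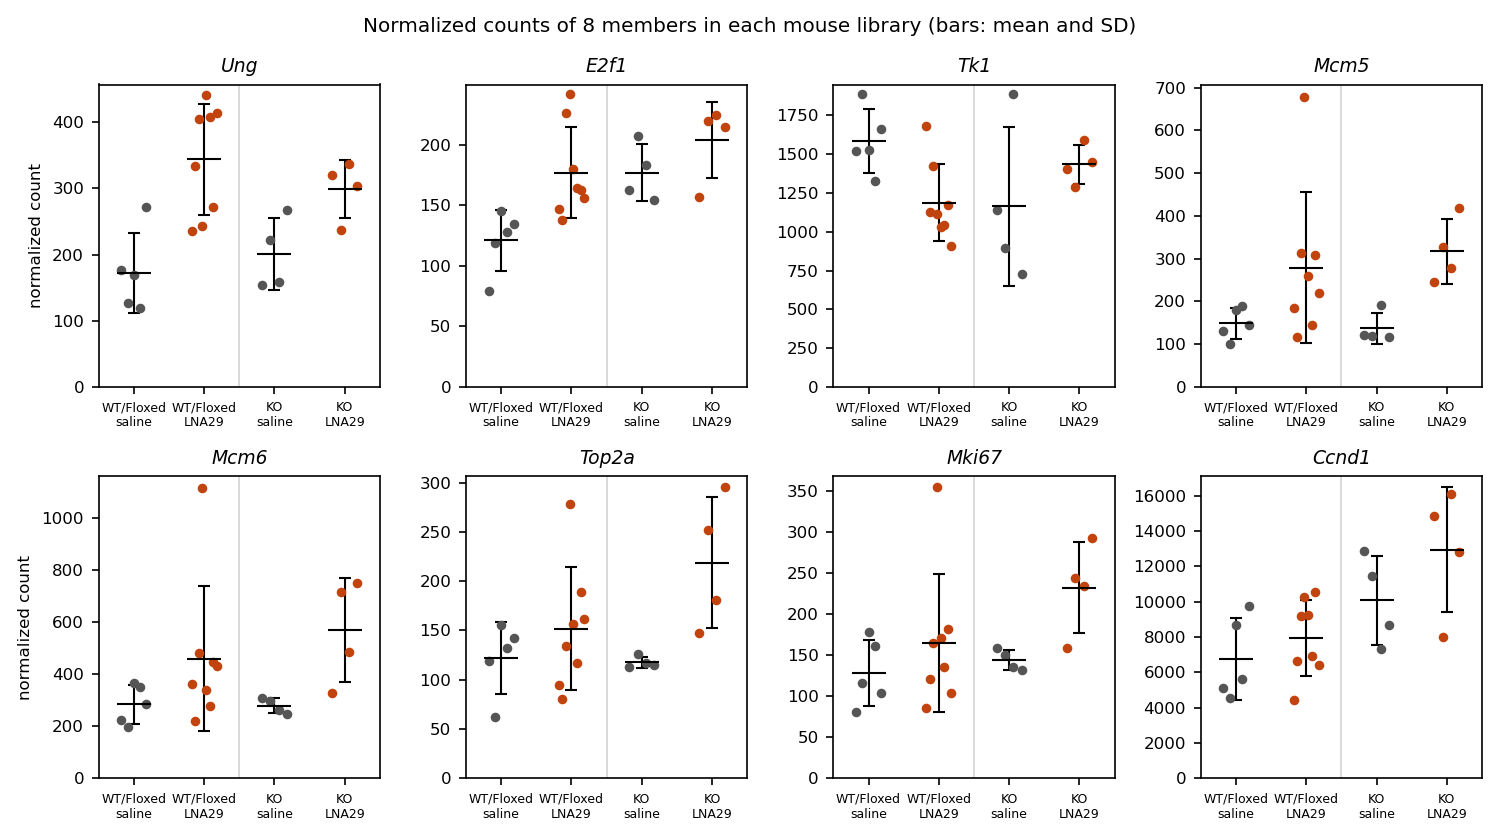
Normalized counts (y axes, from 0) of 8 members in each mouse liver by group (x axes), with horizontal bars for the mean and vertical bars for 1 SD. The mean of Ung is 344 with LNA29 and 172 with saline in WT/Floxed mice, and the 4 Mcm5 points of LNA29 in the mice labelled L-Sirt1 KO (245.2 to 418.7) lie above the 4 of saline (117.6 to 191.8).

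The calls in the mice labelled L-Sirt1 KO leaned on single livers. LNA29 replicate 4 was the highest of 8 for 19 members and replicate 2 for 9, and the mean of the mitosis genes lay 0.33, 0.86, 0.59 and 0.99 above the saline mean in replicates 1 to 4. For the replication genes these means were 0.30, 0.57, 0.40 and 0.75, while the saline livers spanned -0.08 to 0.14. The number of called members was 1 without LNA29 replicate 2, LNA29 replicate 4 or saline replicate 4, 3 without LNA29 replicate 3 or saline replicate 2, 4 without saline replicate 1 or 3, and 10 without LNA29 replicate 1. With the sequencing flow cell as a covariate, Mcm4 and Mcm5 were called. The summed macrophage markers were 16100, 13060, 16400 and 13060 in LNA29 replicates 1 to 4 and 16240 to 19530 with saline. Of these 8 markers, 2 were called lower (Clec4f and Vsig4, where 0.68% of all genes were) and 1 lay above 0 (49.5% of all genes). The summed lymphocyte markers were 823.8 to 1216 and 891.5 to 1218, the erythroid markers 990.2 to 1568 and 1295 to 1542, and none of either list was called. Lyve1 was lower here too (-1.17, limma adjusted p = 0.115), as the 1 called of 6 endothelial markers. Over that list, 2 of 6 lay above 0 and the median was -0.04. Its sums were 11720 to 12840 with LNA29 and 12030 to 13140 with saline. The part of these cell types in the member values was not tested.

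Set side by side, the comparisons of both genotypes used different mice, with no shared controls, and tables normalized apart. The WT mice were also younger (9 to 11 weeks) than the L-Sirt1 KO mice (15 to 20 weeks), so genotype and age are partly mixed here. Of the 40 members, 33 had a log2 fold change above 0 in both tables (26.9% of the 15601 genes tested in both) and 0 had one below 0 in both (26.8%). It was larger in the mice labelled L-Sirt1 KO for 32 members (50.4% of those genes), and 4 members (Mcm5, Mcm7, Ung and Cdc20) had an unadjusted p under 0.05 in both (2.76%). No member was called in both. Calls were few over all genes, at 2.42% higher and 1.93% lower in WT/Floxed and 1.19% and 0.68% in L-Sirt1 KO mice. The share of all genes called in both was not computed, so this count is not read as a difference. The difference between the responses was tested in 1 model over 15601 genes with an interaction term, by which 7 genes had a limma adjusted p under 0.2 and 9.14% an unadjusted p under 0.05. Among the members, 0 had an adjusted p under 0.2 and 2 an unadjusted p under 0.05. These were Tk1, at -0.43 in WT/Floxed and 0.39 in L-Sirt1 KO mice (difference 0.83, SE 0.28, adjusted p = 0.355), and Ccne1, at 0.78 and -0.37 (difference -1.15, SE 0.50, adjusted p = 0.476). For Mcm5 the difference was 0.47 (SE 0.48, adjusted p = 0.825) and for Ung -0.42 (SE 0.33, adjusted p = 0.745), so that a response particular to either genotype was not shown for them. With the WT livers left out, 0 members passed the adjusted limit of the interaction (smallest limma adjusted p = 0.279).

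Further genes of the same pathways were read from lists that hold 36 other replication genes, 45 other mitosis genes, 11 regulators of the step from G1 to S and 14 brakes on the cycle. In WT/Floxed mice, 0 of 34 tested replication genes and 6 of 44 tested mitosis genes were called, all 6 higher, where 2.42% of all genes were. The medians were 0.15 and 0.38, beside 0.0017 over all genes tested. The largest of the 6 were Ncaph, a subunit of the condensin that compacts chromosomes (log2 fold change 1.10, SE 0.25, limma adjusted p = 0.0484), Nek2, a centrosome kinase (1.07, SE 0.37, adjusted p = 0.199), and Spc25, a kinetochore protein (0.94, SE 0.21, adjusted p = 0.0413). In the L-Sirt1 KO mice, the medians of the same lists were 0.33 and 0.68, beside -0.0027 over all genes tested. Called there were 2 of 35 replication genes and 3 of 44 mitosis genes, all higher, where 1.19% of all genes were. They were Uhrf1, which keeps DNA methylation through replication (1.25, SE 0.26, adjusted p = 0.102), Wdhd1, a replisome protein (0.69, SE 0.17, adjusted p = 0.181), Prc1, a bundler of spindle microtubules (1.51, SE 0.30, adjusted p = 0.0891), Cdca3 (0.76, SE 0.18, adjusted p = 0.148) and Stmn1, which destabilizes microtubules (0.69, SE 0.13, adjusted p = 0.0794). Stmn1 was called in WT/Floxed mice as well (0.66, SE 0.18, adjusted p = 0.108).

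The regulators and brakes held a kinase and an inhibitor that both rose in WT/Floxed mice. Called higher there were 2 of 11 tested regulators and 1 of 13 tested brakes, where 2.42% of all genes were. None was called lower (1.93% of all genes). Cdk2, the kinase of cyclin E, was at 608.4, 731.8 and 871.4 with LNA29 and at 482.6, 441.7, 511.6, 446.3 and 368.3 with saline (log2 fold change 0.70, SE 0.10, limma adjusted p = 0.00376). Its groups did not overlap, where 0.942% of all genes were separate and higher. E2f8, a repressor of the E2F family, also rose (0.71, SE 0.16, adjusted p = 0.0476). Cdkn1a, which encodes the kinase inhibitor p21, was at 657.2, 2127 and 4378 with LNA29 and at 807.2, 444.6, 1618, 1172 and 344.5 with saline (1.44, SE 0.42, adjusted p = 0.125), and its highest value again belonged to LNA29 replicate 4. In mice labelled L-Sirt1 KO none of the 11 tested regulators or 13 tested brakes was called, where 1.19% of all genes were called higher and 0.68% lower. There, Cdk2 was at 0.05 (SE 0.13, adjusted p = 0.9) and Cdkn1a at 1.49 (SE 0.45, adjusted p = 0.263), at 1496, 1598, 2045 and 1115 with LNA29 and at 683.1, 1082, 186.5 and 628.7 with saline. Each treated liver was above every saline liver for Cdkn1a (3.65% of all genes were separate and higher), though it missed the adjusted limit.

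In rats, the counts of these genes were low and the depth of the libraries was uneven. ZLR replicates 3 and 4 held an estimated 0.189 M reads each, where ZLR replicates 1 and 2 held 56.4 and 46.1 M, and 1 read in ZLR replicate 3 was worth 10.53 normalized counts. Among the 39 members in the table, 0, 0, 23 and 25 were listed at 0 in ZLR replicates 1 to 4, and 0, 7, 7 and 4 in ZFR. With BT2 the numbers were 15, 15, 15 and 23 and with vehicle 10, 2, 11 and 26. Only 9 members, 8 replication genes and Ccnd1, had a mean of at least 10 normalized counts in each comparison, and no mitosis gene did. The 8 replication genes were not the same, since Mcm2 passed only in ZFR against ZLR and Rfc3 only in BT2 against vehicle.

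**Figure D4:**
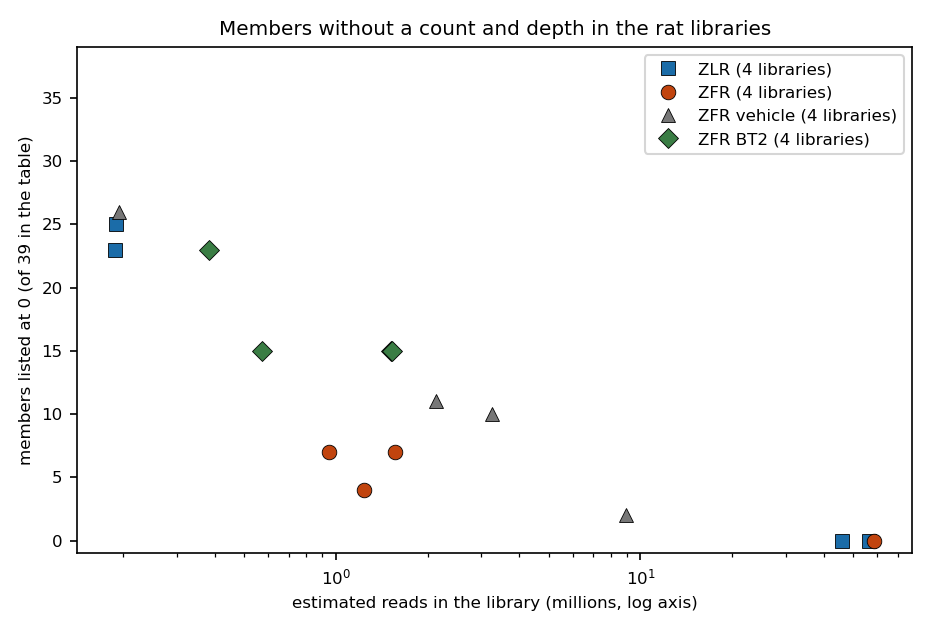
Number of members listed at 0 in each rat library (y axis, of 39) against its estimated M reads (x axis, log scale), with a symbol for each of the 4 groups. The libraries under 0.2 M reads list 23 to 26 members at 0, and the 3 deepest list none.

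Between ZFR and ZLR, 0 of the 9 tested members had a limma adjusted p under 0.05, where 1.8% of 8633 genes were called higher and 2.46% lower. At an unadjusted p under 0.05, 0 members were higher or lower (8.39% and 8.17% of all genes). The 8 replication genes had a median log2 fold change of -0.03 and the 9 members 0.06, close to the 0.07 of all genes. Mcm2 was at 10.8, 24.7, 25.1 and 18.7 in ZFR and at 6.97, 9.67, 10.53 and 20.9 in ZLR (0.71, SE 0.45, adjusted p = 0.462). Ccnd1 was at 74.3, 187.3, 113.6 and 143.1 in ZFR and at 49.7, 113.2, 66.0 and 103.3 in ZLR (0.63, SE 0.33, 95% interval -0.10 to 1.37, adjusted p = 0.377). The groups overlapped for both Mcm2 and Ccnd1, and the interval of Ccnd1 reaches from a small fall to more than a doubling.

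With no minimum mean, all 39 members entered the comparison of ZFR with ZLR and 29 lay above 0 (59% of 18552 genes), with medians of 0.18 for the 20 replication genes, 0.79 for the 13 mitosis genes and 0.95 for the 6 regulators, beside 0.05 over all genes. Of the 39, 6 were higher at an unadjusted p under 0.05 (Mcm3, Mcm5, Plk1, Cdc20, Top2a and Ccne1), where 7.12% of all genes were, 0 were lower, and 0 had a limma adjusted p under 0.05. In the shallow ZLR replicates 3 and 4, 23 and 25 of the 39 members were at 0, among them all of these 6. In ZFR, 0, 7, 7 and 4 were at 0. The medians and counts above therefore do not show that the members were higher in ZFR. The groups did not overlap for 3 members, Mcm5, Plk1 and Ccne1, all higher in ZFR, where 6.12% of all genes were separate and higher. The mitosis kinase Plk1 was at 0.772, 1.18, 2.09 and 3.11 in ZFR and at 0.306, 0.518, 0 and 0 in ZLR. Each of its values, like those of Mcm5 and Ccne1 except the 10.9 of Ccne1 in ZFR replicate 4, lay under the 10.53 normalized counts that 1 read was worth in ZLR replicate 3, so that the zeros of the shallow ZLR libraries do not place them below ZFR.

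Pcna was at 26.6, 44.7, 20.9 and 23.3 in ZFR and at 23.9, 24.9, 31.6 and 52.2 in ZLR (-0.18, SE 0.33, adjusted p = 0.79), where 31.6 and 52.2 are the values of the shallow ZLR libraries and stand for 3 and 5 reads. Without the libraries under 0.5 M reads the value was 0.17. Mki67, not tested, was at 4.83, 20, 12.5 and 10.9 in ZFR and at 2.61, 4.41, 10.53 and 0 in ZLR, and Cdk1 at 0.906, 1.18, 0 and 4.69 and at 0.732, 1.22, 0 and 0. The 10.53 of Mki67 in ZLR replicate 3 is a single read. Of the 6 tested brakes on the cycle, 1 was called higher in ZFR, where 1.8% of all genes were. This was Btg2, an antiproliferative gene, at 224.7, 91.8, 261.1 and 102.7 against 37.05, 33.9, 73.7 and 62.6 (1.62, SE 0.39, limma adjusted p = 0.0486). Of the cell type markers, Stab2 among 5 endothelial markers was called higher (1.8% of all genes). Ttr and Cps1 among 7 hepatocyte markers were called lower (2.46%), and the other marker lists held no call. The part of these cell types in the member values was not tested.

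Between ZFR given BT2 and ZFR given vehicle, 0 of the 9 tested members and 0 of all 8405 genes tested with limma were called, while 164 genes were higher and 168 lower at an unadjusted p under 0.05. The median of the 9 members was -0.04. Mcm7 was at 35.6, 29.4, 14.7 and 10.9 with BT2 and at 14.6, 16.8, 19.2 and 0 with vehicle (1.30, SE 0.91, adjusted p = 0.898), and Ccnd1 at 38.7, 21.8, 13.2 and 34.1 against 18.1, 43.8, 36.3 and 0 (0.96, SE 1.03, adjusted p = 0.907). Both zeros came from vehicle replicate 4, which held 0.193 M reads, and without it Ccnd1 was at -0.29 and Mcm7 at 0.26. Pcna was at 24.9, 29.4, 30.8 and 27.2 against 28.0, 26.9, 22.0 and 41.3 (-0.04, SE 0.26, adjusted p = 0.986). Mki67, at 10.7, 1.33, 0 and 0 against 1.22, 0.895, 0.917 and 0, and Cdk1, at 0 in the 4 BT2 libraries and at 0, 0.9, 0.921 and 0 with vehicle, were too low to compare.

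Ung was the 1 member at an unadjusted p under 0.05 with BT2, where 2.0% of all genes were lower at that limit, and the 1 tested member whose groups did not overlap, where 1.44% of all genes were separate and lower. It is named here after its values were seen. It was at 128.1, 106.8, 125.9 and 103.3 with BT2 and at 138.9, 146.2, 156.8 and 196.2 with vehicle (log2 fold change -0.45, SE 0.16, 95% interval -0.81 to -0.09, limma adjusted p = 0.898, exact permutation p = 0.0286). The difference failed the correction over all genes. The highest value, 196.2, came from vehicle replicate 4 with 0.193 M reads, without which the log2 fold change was -0.35 (SE 0.16) and no longer had an unadjusted p under 0.05. It was -0.29 (SE 0.16) without the libraries under 0.5 M reads, where it missed the limit as well.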

How the data were processed

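Liver polyA+ RNA of 21 mice and 16 rats was sequenced. The authors aligned reads to mm10 or rn6 with STAR, quantified genes with Salmon and deposited DESeq2-normalized counts, a signal, in 4 tables, each normalized on its own. They had left out 1 floxed saline mouse. The annotation release and strand setting are not given in the sources used here. From these tables, entries without a name or with a repeated name were dropped, and log2(normalized count + 1) of genes with a mean of at least 10 was fitted by limma 3.58.1 (lmFit, eBayes with trend) in R 4.3.3, with Benjamini-Hochberg adjustment over all genes tested. Rat calls used an adjusted p under 0.05. Count models were not run, since 73.6% to 78.7% of low values in mouse and 76.7% to 92.1% in rat libraries were whole multiples of 1 read (within 0.02 of a read). Each library carries an identifier of its own in its title and was taken as 1 animal. The members and all lists were chosen with earlier results of these data known. Values are printed for called members, the largest difference of each role group, Pcna, Mki67, Ccnd1 and Cdk1, and for up to 3 called genes each way of each further list. Scripts were tested on simulated data and used data.table (1.17.8), Python 3.11.15, numpy 2.4.6, pandas 2.3.3 and matplotlib 3.10.9. The alternatives named in the closing section changed 1 choice at a time, and leaving out rat libraries under 0.5 M reads was chosen after seeing the data.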

Additional observations from a re-analysis of the deposited data

Results flagged for a closer look

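Within groups of 4 to 10 livers, the gap between the highest or lowest value and its neighbour was set against the range of the group for each named member, in 52 groups, of which chance alone marks about 5%. 2 values stood apart. Mki67 was at 354 normalized counts in WT/Floxed LNA29 replicate 4, far above the other treated livers. That liver also had the highest sums of macrophage and lymphocyte markers, and without it the log2 fold change of Mki67 was 0.12. Mcm5 was at 191.8 in L-Sirt1 KO saline replicate 3, above the other saline livers and below every treated liver.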

How the results depend on the processing

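In WT/Floxed mice, 3 members were past the criteria. The number was 1 with no minimum mean, with the replicate block or at an adjusted p under 0.05, 0 in WT livers alone, and 1 to 4 with 1 liver left out. It was 1 without LNA29 replicates 5, 6, 7 or 8 or saline replicates 1 or 2, and 4 without saline replicate 4. In mice labelled L-Sirt1 KO, the 5 members became 3 with no minimum mean, 10 with sample quality weights, 2 with the flow cell as a covariate, 1 with the replicate block, 0 at an adjusted p under 0.05, and 1 to 10 with 1 liver left out. The median of their replication genes was 0.51 with the flow cell. The replicate numbers are labels only, since livers of the same number deviated together with correlations of -0.281 to 0.241, and over all genes the block moved the calls from 383 higher and 305 lower to 39 and 17 in WT/Floxed mice, and from 189 and 108 to 94 and 51 in mice labelled L-Sirt1 KO. Quality weights gave 658 and 650, and 443 and 361, no minimum mean 238 and 158, and 113 and 47, and an adjusted p under 0.05 133 and 73, and 34 and 3. WT livers alone gave 56 and 32, and the flow cell gave 76 and 27 for the L-Sirt1 KO mice. With quality weights, Tk1 passed the adjusted limit of the interaction (1 member in place of 0), as it did without WT/Floxed LNA29 replicate 1 or L-Sirt1 KO saline replicate 3 (0 to 1 with 1 liver left out).

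In ZFR against ZLR, where 155 genes were higher and 212 lower, quality weights called 607 and 562, precision weights 1251 and 929, and the block 87 and 134. There, precision weights from the estimated reads called 2 members (Ung and Tk1, 1 higher and 1 lower), and the median of the replication genes was 0.28 without libraries under 0.5 M reads. Pcna turned to 0.11 with quality weights, 0.15 with precision weights and 0.17 without those libraries, and ranged from -0.41 to 0.052 with 1 library left out. With BT2, Ccnd1 turned to -0.16, -0.61 and -0.44 and Pcna to 0.080, 0.18 and 0.14 under the same changes, with ranges of -0.29 to 1.54 and -0.16 to 0.13. The causes were not tested. Members with a miR-29 site fell from 4 to 1 with the 8-base site. Apart from left-out libraries, 69 of the counts and medians stayed within the spread or 1.5 times and 14 did not, and for single members 179 values kept their call, 24 lost it, 3 gained it and 9 turned sign. Leaving out rat libraries under 5 M reads was not run, since too few would remain. With no minimum mean, the mitosis genes of rats had medians of 0.79 (ZFR against ZLR, 13 genes) and 0.25 (BT2, 11 genes), with no call. Depth limits the rat values.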
